A study of Mus musculus with 6 samples.

Results

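Elastic fibres give arteries and skin their recoil, and the 10 genes described here encode proteins of these fibres or of the matrix around them. They are Eln, Fbln5, Fbn1, Fbn2, Mfap4, Mfap5, Emilin1, Ltbp4, Mgp and Efemp1. They were chosen by name and are 10 of the 32285 genes in the count tables, each found in 1 row. Their unique molecular identifiers (UMIs, 1 tag per captured transcript end) were summed over cells of each library and each cell population, and the populations were called from marker genes that include none of the 10.

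The study labelled cells with a history of Cdh5 (VE-cadherin) expression in mouse back skin, sorted them and read single-cell 3′ libraries to compare hair cycle stages and the loss of Alk1. Wild type (WT) mice carried tdTomato, Cdh5-CreERT2 and Krt14-H2BGFP on a mixed C57BL/6;CD1 strain, and were taken at postnatal day 20 (telogen, the resting stage, 2 libraries) or day 32 (anagen, the growth stage, 2 libraries). Alk1 knockout (KO) mice carried Alk1 flox/flox, tdTomato and Cdh5-CreERT2 on C57BL/6, were taken at day 25 in telogen (2 libraries), and carried no Krt14-H2BGFP allele by their label, whose genotype field reads wild type. All mice received tamoxifen at day 17 (200 µg/g), which activates the Cre in cells that use the Cdh5 promoter, and the share of cells that recombined was not measured here. The study describes the KO libraries as its earlier data set and takes its telogen libraries as their control. Age, strain, the Krt14-H2BGFP allele and the data set therefore cannot be told apart from the KO genotype. The 2 replicates of a WT stage were separate mice per the study, and none of the fibres themselves was measured.

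After keeping cells with 200 to 5000 genes and under 10% mitochondrial UMIs, the libraries held 1713 to 5106 cells with a median of 4371 to 6935 UMIs per cell. The sort was not pure for endothelium. Beside artery-, vein-, capillary-, collecting lymphatic-, lymphatic capillary- and cycling endothelial-like cells (endothelial cells, ECs), the WT libraries held perineurial-like cells (2521), fibroblast-like cells (695), pericyte-like cells (414), Schwann-like cells (106) and immune-like cells (3203). Libraries shared 1 to 8 cell barcodes in pairs. Names rest on marker genes, so each is written with "-like". In the KO libraries the name fibroblast-like was poorly borne out, because the summed level of the 9 fibroblast markers was 5143 and 4819 CPM there (counts of UMIs scaled to a common library total), against 81346 and 72570 CPM in the same population of WT telogen and 68546 and 56034 CPM in WT anagen. The total of KO calls is given with them and, with Schwann-like cells left out too, without them. Other KO totals and ranges include them.

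Elastin, the product of Eln, is secreted as a soluble monomer and crosslinked by lysyl oxidases into an insoluble core. The core is laid on a scaffold of microfibrils built from the fibrillins Fbn1 and Fbn2 with the associated glycoproteins Mfap4 and Mfap5, and Fbln5, Ltbp4, Emilin1 and Efemp1 help to place elastin on that scaffold or sit at its surface. Mgp, matrix Gla protein, is an inhibitor of calcification of the elastic layers of arteries and a binder of bone morphogenetic proteins (BMPs). Alk1, encoded by Acvrl1, is an endothelial receptor for ligands of that family. Large arteries are rich in elastic layers made mainly by smooth muscle, and dermal elastic fibres are made mainly by fibroblasts.

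The genes are scattered over the genome. In the mm10 build (RefSeq annotation of GRCm38.p6) Eln lies on chromosome 5 at 134702595 to 134747368, with Emilin1 on the same chromosome at 30913387 to 30921279. Mfap5 (122513584 to 122529290) and Mgp (136872435 to 136875823) lie on chromosome 6, and Efemp1 (28853154 to 28926743) and Mfap4 (61485431 to 61488708) on chromosome 11. Fbn1 lies on chromosome 2 (125300594 to 125506485), Ltbp4 on chromosome 7 (27305140 to 27339720) and Fbln5 on chromosome 12 (101746565 to 101819119). Each span is a whole protein-coding gene, exons and introns included.

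Promoter entries were at hand for 5 of the 10 genes, and 3 are shown because they belong to genes with contrasting sites of expression below, Fbln5 in arteries against Fbn1 and Efemp1 in stroma. Each is the 199 bases next to the start of the RefSeq gene (GRCm38.p6), outside the transcribed part, read 5′ to 3′ on the gene's strand. Capitals mark matches to a GC box (GGGCGG), a BMP-SMAD element (GGCGCC) or an AP-1 site (TGANTCA) on either strand, and TATAAA was searched too. Fbln5 is chr12:101819120-101819318 (minus strand), Fbn1 is chr2:125506486-125506684 (minus strand) and Efemp1 is chr11:28852955-28853153 (plus strand).
Fbln5: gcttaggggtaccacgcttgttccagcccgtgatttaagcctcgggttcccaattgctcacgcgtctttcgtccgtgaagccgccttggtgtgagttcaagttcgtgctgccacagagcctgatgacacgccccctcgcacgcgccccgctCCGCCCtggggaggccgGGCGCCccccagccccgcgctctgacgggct
Fbn1: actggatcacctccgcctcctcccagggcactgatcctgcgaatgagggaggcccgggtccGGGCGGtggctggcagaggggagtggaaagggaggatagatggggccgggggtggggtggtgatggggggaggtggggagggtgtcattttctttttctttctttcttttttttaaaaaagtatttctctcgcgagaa
Efemp1: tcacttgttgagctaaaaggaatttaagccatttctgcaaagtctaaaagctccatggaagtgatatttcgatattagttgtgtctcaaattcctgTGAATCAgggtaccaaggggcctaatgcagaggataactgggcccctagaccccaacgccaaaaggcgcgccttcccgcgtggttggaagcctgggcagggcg

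The Fbln5 window held 1 GC box and 1 BMP-SMAD element, which did not overlap, the Fbn1 window held 1 GC box and the Efemp1 window held 1 AP-1 site. Among 32851 promoter windows of the same length, 31% held a GC box, 8.4% a BMP-SMAD element, 5.44% an AP-1 site and 9.93% a TATAAA. The 3 windows were 66.8% (Fbln5), 57.3% (Fbn1) and 49.8% (Efemp1) G or C, with a median of 52.8% over all windows. These matches are letters in a window, and binding was not measured.

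In WT skin the 10 genes divided between artery and stroma. Eln, Fbln5, Ltbp4 and Mgp had their highest mean level in artery-like cells. Fbn1, Fbn2, Mfap4 and Efemp1 had it in fibroblast-like cells, Mfap5 in perineurial-like cells, which form the sheath of nerves, and Emilin1 in pericyte-like cells. Because a UMI is counted once per transcript end, CPM can be set side by side between genes without a correction for length. All levels below are CPM of the summed UMIs of a population in a library.

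**Figure D1:**
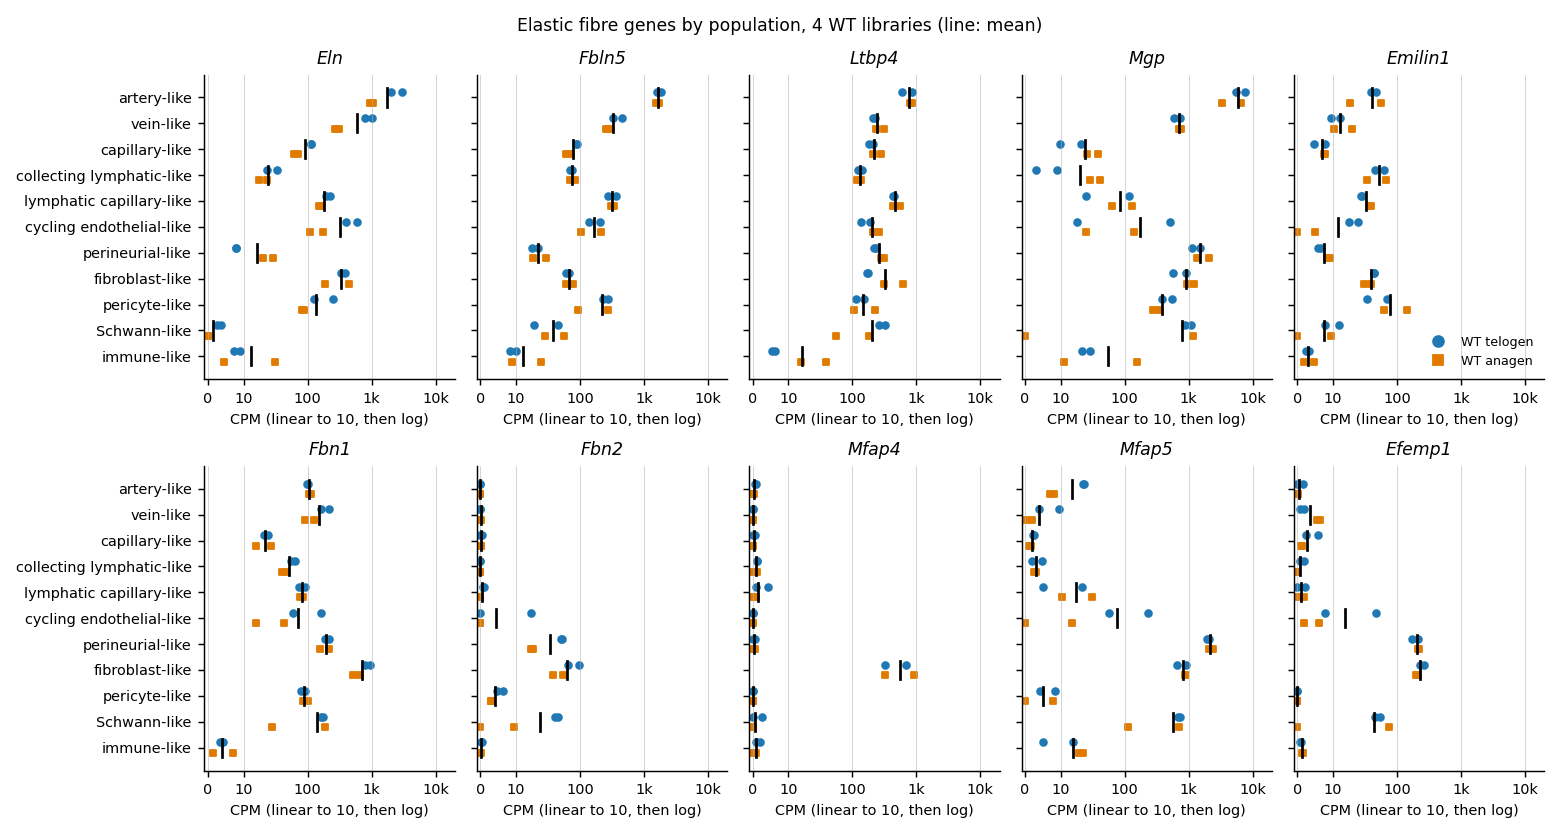
Level of each gene (CPM, axis linear to 10 and logarithmic above) in 11 cell populations, 1 point per WT library (blue circles telogen, orange squares anagen, black line mean of 4). The highest means are 5784 CPM for Mgp and 1751 CPM for Eln in artery-like cells, 2115 CPM for Mfap5 in perineurial-like cells and 564 CPM for Mfap4 in fibroblast-like cells, where alone Mfap4 rises above 5 CPM.

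Eln, the core protein itself, reached 1751 ± 957 CPM (SD, n = 4) in artery-like cells. The libraries read 2004 and 2998 CPM in telogen and 952 and 1049 CPM in anagen. Vein-like cells were next with 598 ± 369 CPM (SD, n = 4), from 268 to 1028 CPM, so that the telogen veins overlapped the anagen arteries. Fibroblast-like cells held 338 ± 111 CPM, lymphatic capillary-like cells 182 ± 33.1 CPM, pericyte-like cells 137 ± 79.2 CPM and capillary-like cells 89.7 ± 27.3 CPM (SD, n = 4 each), each overlapping its neighbour in this order. Collecting lymphatic-like cells (24.2 ± 6.47 CPM) lay below all of these without overlap and near immune-like cells, which should lack the gene and read 4.49 to 31.2 CPM. Pericyte-like cells, the population that includes vascular smooth muscle, thus held far less Eln than artery-like cells, and their counts also held endothelial markers (1443 to 3272 CPM summed over 8 genes in the WT libraries, against 7219 to 8683 CPM in artery-like cells).

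Fbln5, which binds elastin and the cell surface, was the most arterial of the scaffold genes. Its artery-like level was 1585 and 1844 CPM in telogen and 1695 and 1547 CPM in anagen, a mean of 1668 ± 133 CPM (SD, n = 4). No library of another population came near it. Vein-like (332 ± 87.7 CPM), lymphatic capillary-like (321 ± 38.3 CPM) and pericyte-like cells (220 ± 87.5 CPM) followed and overlapped each other, and fibroblast-like cells held 66.9 ± 7.47 CPM.

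Ltbp4, a latent TGF-beta binding protein that works with Fbln5 in elastin assembly, was also found outside the arteries. Artery-like cells led with 595 and 855 CPM in telogen and 866 and 791 CPM in anagen (777 ± 126 CPM, SD, n = 4). The other EC populations stayed below all 4 of these, and 1 fibroblast-like library (617 CPM) reached into their range. Lymphatic capillary-like cells held 429 to 565 CPM, and collecting lymphatic-like cells, at 120 to 141 CPM, were the lowest of the non-cycling ECs.

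Mgp gave the largest values of the set. Artery-like cells read 5456 and 7705 CPM in telogen and 3327 and 6649 CPM in anagen (5784 ± 1878 CPM, SD, n = 4), and the next population, perineurial-like cells, read 1144 to 2086 CPM. Fibroblast-like cells held 560 to 1188 CPM and vein-like cells 599 to 768 CPM. Capillary-like cells, at 9.87 to 38.7 CPM, overlapped immune-like cells, at 11.4 to 158 CPM.

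Fbn1, the first of the microfibril genes, was highest in fibroblast-like cells. They held 780 and 930 CPM in telogen and 651 and 515 CPM in anagen (719 ± 177 CPM, SD, n = 4), well clear of perineurial-like (194 ± 28.9 CPM) and vein-like cells (149 ± 52.4 CPM), and artery-like cells held 104 ± 7.22 CPM. Fbn2 was low throughout and stromal. It read 64.7, 97.6, 55.2 and 37.5 CPM in the fibroblast-like cells of the 4 WT libraries and 17.0 to 52.0 CPM in perineurial-like cells, and artery-like cells gave 0 UMIs in all 6 libraries. In artery-like cells of the WT libraries a count of 0 allows at most 0.609 to 2.46 CPM.

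Mfap4 was found almost wholly in fibroblast-like cells. They held 692 and 325 CPM in telogen and 916 and 323 CPM in anagen, and 98.1% of all WT Mfap4 UMIs, although they were 4.02% of WT cells. In the other populations no WT library exceeded 4.36 CPM. Mfap5 instead was a perineurial gene, at 1947 and 2064 CPM in telogen and 2375 and 2074 CPM in anagen. Perineurial-like cells held 78.5% of its UMIs with 14.6% of the cells, and fibroblast-like cells followed with 653 to 895 CPM, without overlap. Efemp1 (fibulin-3) was shared by the same populations, at 265, 231, 211 and 199 CPM in fibroblast-like and 213, 171, 213 and 223 CPM in perineurial-like cells of the 4 WT libraries, and these ranges overlapped. It stayed at or under 6.27 CPM in artery-, vein-, capillary- and both lymphatic-like populations.

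Emilin1, a glycoprotein at the interface of elastin and microfibrils, was low in every population. Pericyte-like cells had the highest mean, 78.3 ± 47.4 CPM (SD, n = 4), with libraries from 34.1 to 145 CPM. Collecting lymphatic-like (52.3 ± 15.5 CPM), artery-like (40.4 ± 16.3 CPM) and fibroblast-like cells (39.3 ± 6.38 CPM) followed, and all 4 populations overlapped.

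The shares of all WT UMIs, which also depend on how many cells of each population were sorted, gave the same division for most of the genes. Artery-like cells were 12.50% of the WT cells and held 58.0% of the Eln, 68.0% of the Fbln5, 61.3% of the Mgp and 34.4% of the Ltbp4 UMIs. Fibroblast-like cells (4.02%) held 45.2% of the Fbn1 and 46.9% of the Fbn2 UMIs, and perineurial-like cells held 58.1% of the Efemp1 and 45.5% of the Fbn2 UMIs. Efemp1 (37.3% in fibroblast-like cells) and Emilin1 (22.4% in artery-like and 12.1% in pericyte-like cells) thus departed from the order by level.

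Single cells were thinned to 1500 UMIs each, leaving shallower cells out, so that shares of cells with a UMI could be compared. This left out 75 artery-like and 145 fibroblast-like cells, with 550 fibroblast-like cells kept. The shallow fibroblast-like cluster described below had a median depth under 1500 UMIs, so the fibroblast-like shares describe mainly the deeper cells. Fbln5 was seen in 83.9% of 2083 artery-like cells (95% exact binomial interval 82.3 to 85.5%), Ltbp4 in 62.7%, Eln in 52.3% (50.1 to 54.4%) and Mgp in 49.3%. The Mgp share was higher in perineurial-like cells (77.4%) although their Mgp level in CPM was lower, so the 2 measures order the populations differently and no order was read from the share. Mfap5 was seen in 91.4% of perineurial-like cells, Fbn1 in 45.3% and Mfap4 in 20.0% of fibroblast-like cells, Efemp1 in 20.2% of fibroblast-like cells, Emilin1 in 7.43% of pericyte-like cells and Fbn2 in 7.82% of fibroblast-like cells. The same shares in 3032 immune-like cells, which should lack these genes, were 0.92% for Eln, 1.15% for Fbln5, 0.76% for Ltbp4, 1.78% for Mgp, 1.39% for Mfap5 and at most 0.46% for the other 5. Median depth before thinning was 5070 UMIs in artery-like and 11597 UMIs in immune-like cells, and these intervals cover counting error only.

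**Figure D2:**
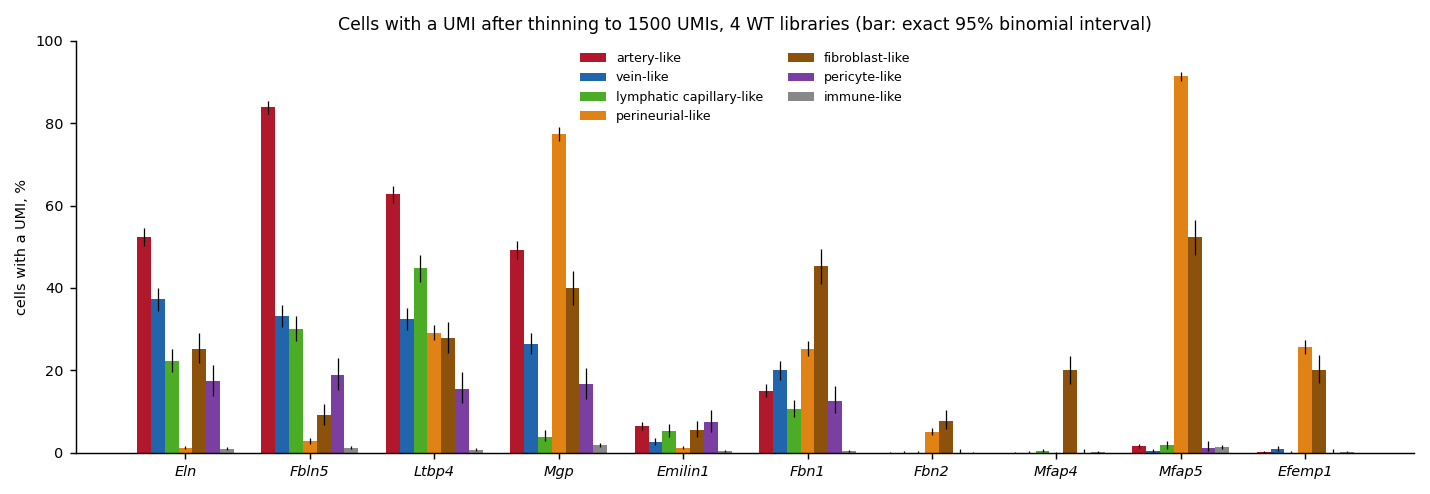
Share of cells with at least 1 UMI of each gene (%, y axis) after thinning to 1500 UMIs per cell, over the 4 WT libraries, by population (colours); error bars are exact 95% binomial intervals. Fbln5 stands at 83.9% in artery-like cells and Mfap5 at 91.4% in perineurial-like cells, and every grey bar (immune-like cells) is at or under 1.78%.

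Within artery-like cells, Mgp was seen more often in cells with Eln than in cells without it. Mgp was seen in 65.9% of the 1089 thinned artery-like cells with Eln and in 31.1% of the 994 without it. For Ltbp4 the shares were 70.2% and 54.5%, for Emilin1 9.37% and 3.22%, and for Fbln5 88.1% and 79.4%. These cells share their libraries and their depth, and the shares are a description.

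Clustering, in which none of the 10 genes or of their pathway list took part, gave 2 artery-like clusters. One was led by Gkn3 and Gja5 (a connexin of arterial endothelium) and the other by Pi16 and Alpl. Eln was almost all in the first. It read 3559 and 4898 CPM (telogen) and 1760 and 1885 CPM (anagen) in the Gkn3 and Gja5 cluster, against 261, 294, 174 and 267 CPM in the Pi16 and Alpl cluster, a mean 12.2 times higher. Mgp was 16.2 times higher, with means of 10401 ± 2877 and 643 ± 381 CPM (SD, n = 4), and Emilin1 5.34 times (66.0 ± 27.9 and 12.4 ± 4.81 CPM). Fbln5 and Ltbp4 belonged to both, with ratios of 1.56 (2010 ± 144 and 1288 ± 74.7 CPM) and 1.63 (957 ± 173 and 586 ± 93.3 CPM). The libraries of the 2 clusters did not overlap for these 5 genes or for Fbn1 (126 ± 14.7 and 80.7 ± 3.53 CPM). The clusters were compared after their values were seen, so no test is given.

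**Figure D3:**
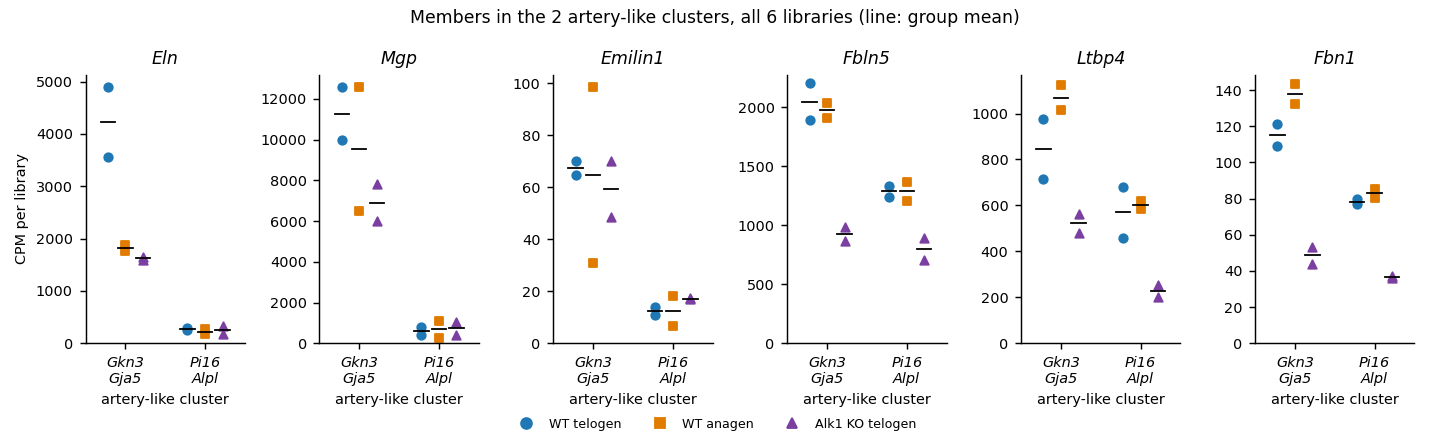
Level of 6 genes (CPM, y axes start at 0 and differ between panels) in the 2 artery-like clusters, 1 point per library, 6 libraries in 3 groups, with the group mean as a line. Eln, Mgp and Emilin1 are largely limited to the Gkn3 and Gja5 cluster (Eln 3559 and 4898 CPM in telogen, against 261 and 294 CPM), while Fbln5 and Ltbp4 are high in both.

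Veins showed a milder division. The cluster led by Ackr1 and Cytl1 held Eln at 1472 and 1876 CPM in telogen and 478 and 599 CPM in anagen, and the cluster led by Ackr1 and Sele held 543 and 679 CPM, then 209 and 259 CPM. Mgp was 4.41 times higher in the first (1733 ± 542 and 393 ± 172 CPM, SD, n = 4), without overlap. Fibroblast-like cells consisted of a main cluster and a shallow one with a median of 1322 UMIs per cell, led by Mfap4 and Col1a1. Mfap4 overlapped between them (567 ± 322 and 660 ± 393 CPM), whereas Mfap5 (921 ± 148 and 30.8 ± 6.32 CPM) and Efemp1 (251 ± 24.1 and 8.33 ± 6.84 CPM) were 29.9 and 30.1 times higher in the main cluster.

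Differences between populations were tested on summed counts with the library as a block (edgeR quasi-likelihood test, Benjamini-Hochberg adjustment over all genes tested). A gene was called at an adjusted p under 0.05 with a fold over 1.3. Against the summed UMIs of the other blood ECs (vein- and capillary-like), artery-like cells were higher for all 7 of the 10 genes with enough counts. Of all genes, 33.3% were called and 17.2% were called higher. Mgp led with a log2 fold change of 4.44 ± 0.08 (SE), followed by Fbln5 (3.35 ± 0.14), Eln (2.72 ± 0.12), Mfap5 (2.47 ± 0.25), Emilin1 (1.98 ± 0.18), Ltbp4 (1.77 ± 0.08) and Fbn1 (0.81 ± 0.22, adjusted p = 0.0102, libraries overlapping). The median over the 7 was 2.47, the Mfap5 value, against -0.01 over all genes tested. Artery-like Mfap5 was low, with a mean of 15.2 CPM over the WT libraries. Immune-like cells, which should lack it, had a mean of 15.4 CPM. The Fbn1 call was lost with DESeq2 (log2 0.70, adjusted p = 0.195), with cells called from summed markers (0.53, adjusted p = 0.0679) and without the library term (0.63, adjusted p = 0.111).

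Against fibroblast-like cells, 9 of the 10 genes were called, where 56.5% of all genes were. Artery-like cells were higher for Fbln5 (log2 4.41 ± 0.12, SE), Mgp (2.44 ± 0.20), Eln (2.06 ± 0.26) and Ltbp4 (1.24 ± 0.23, libraries overlapping), and lower for Fbn1 (-2.97 ± 0.17) and Mfap5 (-6.28 ± 0.31). Mfap4 and Efemp1 gave 4 UMIs each in all WT artery-like cells, and Fbn2 gave none, at least 260-fold lower than in fibroblast-like cells with the floor set at 3 UMIs over the libraries. Emilin1 was not called (-0.25 ± 0.25). The Eln and Mgp values of the Pi16 and Alpl cluster were not above those of fibroblast-like cells, with Eln at 174 to 294 CPM against 188 to 450 CPM and Mgp at 265 to 1111 CPM against 560 to 1188 CPM.

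Fibroblast-like and perineurial-like cells also differed in 9 of 10 genes, where 51.4% of all genes were called. Fibroblast-like cells were higher for Mfap4, Eln (log2 4.88 ± 0.34, SE), Emilin1 (2.83 ± 0.21), Fbn1 (2.26 ± 0.11), Fbln5 (2.03 ± 0.16), Fbn2 (1.27 ± 0.17) and Efemp1 (0.54 ± 0.12). They were lower for Mfap5 (-0.98 ± 0.08) and Mgp (-0.38 ± 0.09, adjusted p = 0.00562). Mfap4 gave 4 UMIs in all WT perineurial-like cells, a mean of 0.31 CPM against 0.96 CPM in immune-like cells. The size of its log2 fold change (10.97) is therefore uncertain. The Mgp libraries overlapped, and the call was kept in 8 of 13 alternatives. Among the losses were those without the shallow fibroblast-like cluster (-0.18, adjusted p = 0.139) and with cells called from summed markers, where the direction turned (0.057). Pericyte-like cells against fibroblast-like cells gave 9 calls (44.3% of all genes), 8 of them lower. Only Fbln5 was higher (1.44 ± 0.26), Emilin1 was not called, and Mfap4 and Efemp1, with 0 UMIs in WT pericyte-like cells, were at least 764-fold and at least 307-fold lower.

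The 2 lymphatic populations differed in all 6 genes tested, where 33.3% of all genes were called. Collecting lymphatic-like cells were lower than lymphatic capillary-like cells for Eln (log2 -2.86 ± 0.12, SE), Mgp (-2.05 ± 0.28), Fbln5 (-2.03 ± 0.10), Ltbp4 (-1.78 ± 0.09) and Fbn1 (-0.64 ± 0.13), and higher for Emilin1 (0.65 ± 0.18, libraries overlapping). In telogen and anagen replicates 1 and 2 Eln read 23.2, 33.0, 17.4 and 23.3 CPM in collecting lymphatic-like cells, against 192, 223, 150 and 161 CPM in lymphatic capillary-like cells. The Mgp libraries overlapped, and the call was lost when cells were called from summed markers (-0.12, adjusted p = 0.782) and with the stricter cell filter (-0.59, adjusted p = 0.140).

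The hair cycle comparison asked whether the genes changed between rest and growth. Of 80 pairs of gene and population with enough counts, 5 were called (6.25%), where 0.398% of all pairs of any gene and population were. Eln in blood vessels made up the clearest part. In artery-like cells it fell from 2004 and 2998 CPM in telogen to 952 and 1049 CPM in anagen, by 1.22 on the log2 scale (SE 0.18, adjusted p = 0.0434, 0.327% of all genes called). In vein-like cells it fell from 781 and 1028 CPM to 268 and 315 CPM, by 1.51 (SE 0.16, adjusted p = 0.00290, 0.729% of all genes called). Telogen and anagen libraries did not overlap in either. With 2 libraries a stage, both calls depended on single libraries. Without telogen replicate 2 the arterial change was -0.90 (adjusted p = 0.0756) and with the replicate number as a block -1.19 (adjusted p = 0.0789), and the venous one was -1.31 (adjusted p = 0.0742) without telogen replicate 2 and -1.67 (adjusted p = 0.0946) without telogen replicate 1.

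In the Gkn3 and Gja5 cluster Eln read 3559 and 4898 CPM in telogen and 1760 and 1885 CPM in anagen, and the cluster's share of artery-like cells was 55.8% and 58.8% in telogen and 52.9% and 52.6% in anagen. In the Pi16 and Alpl cluster the stages read 261 and 294 CPM, and 174 and 267 CPM. Eln was called in neither cluster alone, a split chosen after the values were seen (log2 -1.13, adjusted p = 0.0641, and -0.24, adjusted p = 0.525). Eln was not called in the other vessels. Capillary-like cells read 114 and 112 CPM in telogen and 61.1 and 71.6 CPM in anagen, cycling endothelial-like cells 405 and 594 CPM, then 111 and 177 CPM, and lymphatic capillary-like cells 192 and 223 CPM, then 150 and 161 CPM. Fibroblast-like cells, at 380 and 334 CPM in telogen and 450 and 188 CPM in anagen, overlapped. The other arterial genes showed no change that passed the test, as in Fbln5 (log2 0.02 ± 0.13, SE), Ltbp4 (0.30 ± 0.17), Mgp (-0.30 ± 0.27) and Fbn1 (0.26 ± 0.14). Mfap5, low in artery-like cells, read 23.3 and 22.2 CPM in telogen and 8.08 and 7.10 CPM in anagen (adjusted p = 0.0623).

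**Figure D4:**
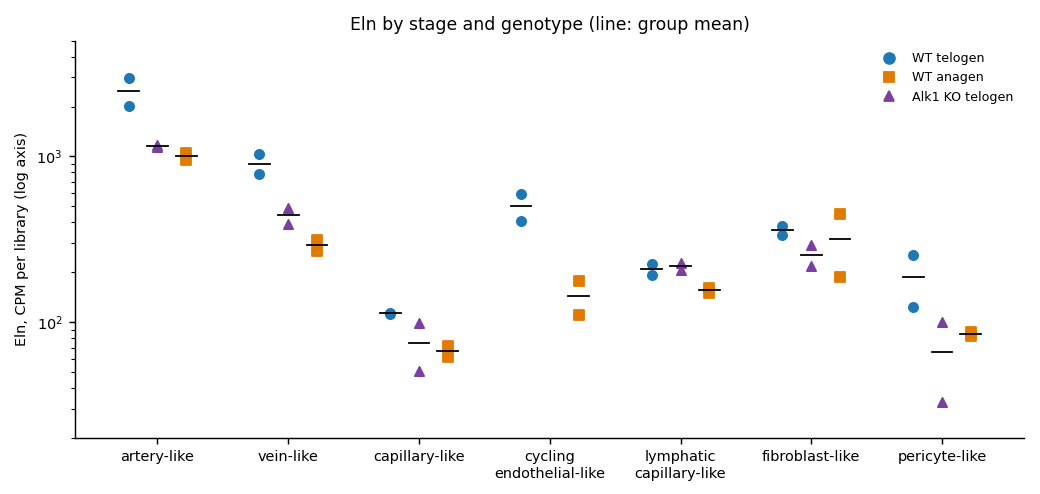
Eln level (CPM, logarithmic y axis) in 7 populations, 1 point per library with the group mean as a line, for WT telogen, Alk1 KO telogen and WT anagen. Artery-like telogen libraries (2004 and 2998 CPM) lie above those of anagen (952 and 1049 CPM) and of the KO (1135 and 1180 CPM), and no KO library held cycling endothelial-like cells.

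The other 3 calls concerned low levels. Fbn2 fell in perineurial-like cells from 50.6 and 52.0 CPM to 18.7 and 17.0 CPM, by 1.45 on the log2 scale (adjusted p = 0.0104, 1.07% of all genes called). It was not called with the stricter cell filter (-0.77, adjusted p = 0.320). Eln rose in perineurial-like cells from 7.78 and 7.82 CPM to 29.2 and 20.1 CPM (log2 1.69, adjusted p = 0.0281), and Mgp in collecting lymphatic-like cells from 3.05 and 8.99 CPM to 28.4 and 40.8 CPM (log2 2.61, adjusted p = 0.0127, 1.6% of all genes called). Immune-like cells, which should lack both genes, read 8.97 and 7.29 CPM, then 4.49 and 31.2 CPM, for Eln and 21.3 and 29.0 CPM, then 11.4 and 158 CPM, for Mgp. In anagen replicate 1 both values were thus above those of the immune-like cells of the same library, and in anagen replicate 2 below them. The source of the UMIs in immune-like cells was not tested. The perineurial Eln change was 0.37 (adjusted p = 0.761) after likely doublets were removed, and the Mgp change was not called with the stricter cell filter (1.97, adjusted p = 0.222) or with DESeq2, which gave it no adjusted p. In fibroblast-like cells none of the 10 genes was called. Ltbp4 read 171 and 176 CPM in telogen and 617 and 311 CPM in anagen there (adjusted p = 0.121), without overlap.

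For the KO the targeted gene comes first. Acvrl1 read 309 and 285 CPM in WT telogen and 313 and 253 CPM in KO artery-like cells (log2 -0.07 ± 0.16, SE), and was lower by the test only in capillary-like (-0.88 ± 0.17) and fibroblast-like cells (-1.13 ± 0.35). Which exons the floxed allele removes was not given in the sources used here, and 3′ tags outside them check nothing, so the label KO is used as GEO gives it. The WT telogen libraries are also the telogen side of the stage comparison.

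Against WT telogen, 34 of 69 pairs of gene and population were called in the KO (49.3%), where 18.7% of all pairs of any gene and population were, and 29 of the 34 were lower. Without the fibroblast-like cells and the Schwann-like cells, which numbered 7 and 11 in the KO, 21 of 55 pairs were called (38.2%), 17 lower and 4 higher. In artery-like cells 5 of 7 genes were called, all lower (18.0% of all genes called, 9.93% lower). The 7 had a median of -0.95 on the log2 scale, against 0.01 over all genes tested. Among the 5 was Mfap5, whose mean over WT artery-like libraries (15.2 CPM) was near that of WT immune-like cells (15.4 CPM).

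Fbln5, Eln, Fbn1 and Ltbp4 fell. Fbln5 read 1585 and 1844 CPM in WT telogen and 954 and 814 CPM in the KO (log2 -0.95 ± 0.14, SE, adjusted p = 0.00106). Eln read 2004 and 2998 CPM, then 1135 and 1180 CPM (-1.11 ± 0.17, adjusted p = 0.00124). Fbn1 read 100 and 96.9 CPM, then 41.3 and 48.1 CPM (-1.13 ± 0.18, adjusted p = 0.00142). Ltbp4 read 595 and 855 CPM, then 450 and 390 CPM (-0.78 ± 0.18, adjusted p = 0.0121), and without telogen replicate 2 it was not called (-0.52, adjusted p = 0.104), nor without KO replicate 2 (-0.66, adjusted p = 0.0638) or with cells called from summed markers (-0.62, adjusted p = 0.0762). KO and WT telogen libraries did not overlap for any of these. Mgp read 5456 and 7705 CPM, then 5369 and 4197 CPM (-0.45 ± 0.17, adjusted p = 0.0870), and Emilin1 39.3 and 46.8 CPM, then 50.9 and 38.5 CPM (0.06 ± 0.24). Mfap5 was called lower (-1.36 ± 0.39, adjusted p = 0.0315), from 23.3 and 22.2 CPM to 6.15 and 11.2 CPM, but kept the call in 8 of 14 alternatives. It was lost without telogen replicate 1 or 2 (adjusted p of 0.111 and 0.0883) or KO replicate 1 (0.1154), with DESeq2 (0.216), with the stricter cell filter (0.0575) and with cells called from summed markers (0.0656).

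Markers of other cells also moved in artery-like cells. The 9 fibroblast markers summed to 246 and 258 CPM in WT telogen and 57.1 and 38.5 CPM in the KO, the pericyte and smooth muscle markers to 148 and 336 CPM, then 32.5 and 29.6 CPM, and the 10 artery markers to 3719 and 3977 CPM, then 2530 and 2694 CPM. Their part in the result was not tested. The cluster shares differed as well, with 65.3% and 73.1% of KO artery-like cells in the Gkn3 and Gja5 cluster, the one with more Eln. Within that cluster Eln read 1591 and 1657 CPM in the KO against 3559 and 4898 CPM, and Fbln5 987 and 865 CPM against 1890 and 2203 CPM. Mgp, not called in all artery-like cells, was called lower in this cluster alone (7809 and 6006 CPM against 9958 and 12570 CPM, log2 -0.73, adjusted p = 0.0106). In the Pi16 and Alpl cluster Ltbp4 read 252 and 203 CPM against 460 and 682 CPM and Fbln5 895 and 707 CPM against 1242 and 1335 CPM, while Eln, at 330 and 185 CPM, overlapped WT telogen. Fbn1 was not called there (36.4 and 37.1 CPM against 77.2 and 79.6 CPM, log2 -1.01, adjusted p = 0.0577), and nor were Eln and Mgp (adjusted p of 0.969 and 0.535).

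**Figure D5:**
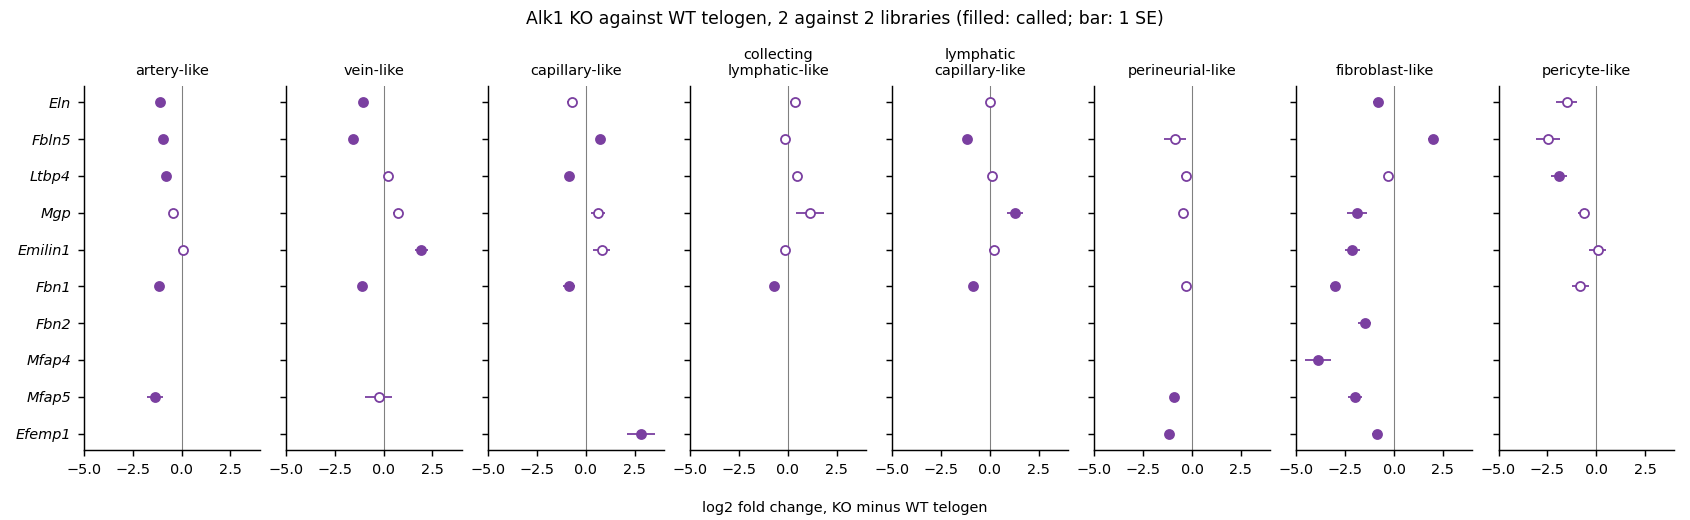
Log2 fold change of each gene, Alk1 KO minus WT telogen (x axis, bars 1 SE, 2 against 2 libraries), in 8 populations; filled points were called, and pairs with too few counts or with a group at or under 3 UMIs are not drawn. Artery-like cells show 5 filled points below 0 (-0.78 to -1.36), and called Fbln5 points lie below 0 in artery-, vein- and lymphatic capillary-like cells and above 0 in capillary-like (0.75) and fibroblast-like cells (1.97).

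Fbln5 and Fbn1 were called in 4 and 5 of the 5 non-cycling EC populations. Fbln5 fell in vein-like cells from 326 and 456 CPM to 110 and 160 CPM (log2 -1.56 ± 0.22, SE, 19.9% of all genes called) and in lymphatic capillary-like cells from 276 and 361 CPM to 140 and 153 CPM (-1.17 ± 0.16, 17.6% of all genes called). It rose in capillary-like cells from 87.1 and 90.9 CPM to 144 and 179 CPM (0.75 ± 0.16, 30.9% of all genes called), a call lost with cells called from summed markers (0.61, adjusted p = 0.0675). Fbn1 was called lower in vein-like (-1.12 ± 0.20), collecting lymphatic-like (-0.69 ± 0.21, 17.3% of all genes called) and lymphatic capillary-like cells (-0.88 ± 0.19). It was also called in capillary-like cells (-0.86 ± 0.29), where its direction turned when clusters were built in another way (0.33 without the Harmony correction). Leaving out telogen replicate 1 or 2 ended the Fbn1 calls in both lymphatic populations (adjusted p of 0.0525 to 0.245) and in capillary-like cells (0.0968 and 0.233). Of 13 alternatives each, the Fbn1 call was kept in 2 in capillary-like, 5 in collecting lymphatic-like and 11 in lymphatic capillary-like cells, and DESeq2 gave adjusted p of 0.261 and 0.270 in the first 2.

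Eln fell in vein-like cells from 781 and 1028 CPM to 491 and 388 CPM (log2 -1.05 ± 0.19, SE), and Emilin1 rose there from 12.6 and 9.52 CPM to 41.4 and 44.5 CPM (1.92 ± 0.33). All 4 vein-like calls were lost without telogen replicate 1 (adjusted p of 0.189 to 0.193), those of Fbn1 and Emilin1 with the stricter cell filter (0.0922 and 0.112), and that of Emilin1 without the Harmony correction (0.0688). Ltbp4 fell in capillary-like cells from 180 and 213 CPM to 107 and 123 CPM (-0.88 ± 0.16), and was not called without the Harmony correction (-0.45, adjusted p = 0.0521). Efemp1 read 2.32 and 5.80 CPM, then 10.6 and 51.8 CPM, in capillary-like cells (2.82 ± 0.72, against 1.13 ± 0.286 CPM, SD, n = 4, in WT immune-like cells), and without KO replicate 2 (1.33, adjusted p = 0.137) or with DESeq2 (adjusted p = 0.0883) it was not called. Mgp rose in lymphatic capillary-like cells (1.29 ± 0.41, from 24.6 and 119 CPM to 183 and 165 CPM), and was not called without telogen replicate 1 (0.51, adjusted p = 0.207), KO replicate 1 (1.21, adjusted p = 0.0685) or KO replicate 2 (adjusted p = 0.190), with DESeq2 (0.615) or with all 6 libraries in one fit (0.0931). Pericyte-like Ltbp4 fell from 150 and 113 CPM to 24.9 and 55.9 CPM (-1.89 ± 0.40, 5.89% of all genes called), and the call was kept in 9 of 13 alternatives. It was lost without telogen replicate 1 (-1.67, adjusted p = 0.106), with the replicate block (0.0621), with all 6 libraries in one fit (0.0619) and with summed markers (0.0956).

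In perineurial-like cells, 3 of 9 genes were called lower, where 20.4% of all genes were called. Mfap5, their dominant member, fell from 1947 and 2064 CPM to 1188 and 1066 CPM (log2 -0.92 ± 0.20, SE, adjusted p = 0.00815), and was not called without telogen replicate 1 (-0.99, adjusted p = 0.110) or 2 (-0.89, adjusted p = 0.150). Efemp1 fell from 213 and 171 CPM to 89.6 and 92.7 CPM (-1.16 ± 0.23, adjusted p = 0.00524), and without telogen replicate 1 had an adjusted p of 0.0537. Fbn2 gave 0 UMIs in 88 and 63 KO cells, against 50.6 and 52.0 CPM, at least 9.04-fold lower with the floor of 3 UMIs over the group. Mgp, at 809 and 1273 CPM in the KO, overlapped WT telogen. The fibroblast markers summed to 6410 and 6721 CPM in WT telogen and 1125 and 984 CPM in KO perineurial-like cells, the adipocyte markers to 1.04 and 0.602 CPM, then 1069 and 958 CPM, and the skeletal muscle markers reached 3236 CPM in KO replicate 1, and their part in the result was not tested.

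KO fibroblast-like cells were 55 and 86 cells with few fibroblast markers, as given above, and in KO replicate 2 the adipocyte markers summed to 5744 CPM. With that said, 9 of 10 genes were called, where 37.7% of all genes were called and 20.6% were called lower. Mfap4 read 692 and 325 CPM in WT telogen and 82.5 and 11.4 CPM in the KO (log2 -3.91 ± 0.66, SE), Fbn1 780 and 930 CPM, then 136 and 129 CPM (-3.03 ± 0.24), and Mfap5 653 and 895 CPM, then 324 and 165 CPM (-2.01 ± 0.34). Emilin1 (-2.13 ± 0.38), Mgp (-1.90 ± 0.52), Fbn2 (-1.51 ± 0.32), Efemp1 (-0.87 ± 0.25) and Eln (-0.83 ± 0.23) were also lower. Fbln5 alone was higher, at 265 and 370 CPM against 67.1 and 61.5 CPM (1.97 ± 0.22). Whether the same cells were compared cannot be told from these libraries. The Eln and Efemp1 calls were lost without telogen replicate 1 (adjusted p of 0.162 and 0.135) and without KO replicate 2 (0.0703 and 0.0972), the Eln call also without telogen replicate 2 (0.0598), and the Fbn2 call without KO replicate 2 (0.0564). Over 14 alternatives Eln kept its call in 9 and Efemp1 in 8, the smallest change being -0.45 (adjusted p = 0.118) and -0.44 (0.161), both with cells called from summed markers.

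Schwann-like cells gave 4 calls among 4 genes tested, all lower (9.31% of all genes called). Their perineurial markers, which include none of the 10 genes, summed to 5398 and 5420 CPM in WT telogen and 711 and 867 CPM in the KO, and the part of these cells' makeup in the calls was not tested. Mgp read 887 and 1090 CPM in WT telogen and 102 and 0 CPM in the KO. The Ltbp4 call was lost without telogen replicate 1 or 2 (adjusted p of 0.931 and 0.852) and without KO replicate 2 (0.05004), and was kept in 4 of 11 alternatives.

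Whether an effect differed between populations was tested as an interaction in 3 pairs of populations. For the stage, 3 of 28 tests were called (10.7%, against 0.199% of all). Mfap5 (-1.74 ± 0.25) and Mgp (-0.99 ± 0.18) moved lower in artery-like than in fibroblast-like cells (log2 difference ± SE, 0.404% of all genes called). Artery-like Mfap5 was near its level in immune-like cells. Eln moved higher in perineurial-like than in fibroblast-like cells (1.97 ± 0.28, 0.0862% of all genes called). Without telogen replicate 1 the Mfap5 and Mgp differences were not called (adjusted p of 0.144 and 0.265), nor was Mgp without telogen replicate 2 (0.101). Mgp kept the call in 6 of 14 alternatives, and lost it with DESeq2 (0.276) too. The Eln difference was not called with likely doublets removed (0.31, adjusted p = 0.905) or with the stricter cell filter (1.88, adjusted p = 0.551), and kept the call in 10 of 12 alternatives. The Eln change in artery-like cells was not shown to differ from that in the other blood ECs or in fibroblast-like cells. For the KO, 11 of 28 tests were called (39.3%, against 9.46% of all).

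In the pair without fibroblast-like cells, 2 of 8 genes tested were called (5.65% of all genes called). The artery-like effect was lower than that in the other blood ECs for Emilin1 (-1.39 ± 0.34, SE) and Mgp (-0.93 ± 0.17). The Emilin1 difference kept the call in 8 of 13 alternatives, with values from -1.83 to -0.94. Among the losses were those without telogen replicate 1 or 2 and with the stricter cell filter (adjusted p = 0.252). The Mgp difference kept the call in 11 of 13 alternatives, with values from -1.36 to -0.20, and lost it with DESeq2 (adjusted p = 0.416) among others. Against fibroblast-like cells the artery-like effect was higher for Emilin1 (2.17), Fbn1 (1.91) and Mgp (1.64) and lower for Fbln5 (-2.91), where 17.1% of all genes were called. The Mgp difference was not called with DESeq2 (adjusted p = 0.162). Between perineurial- and fibroblast-like cells 5 genes were called (5.99% of all genes), among them Fbn1 (2.77) and Mfap5 (1.18), whose KO effect was less negative in perineurial-like cells. The Mfap5 difference was not called without telogen replicate 1 or 2 or KO replicate 2 (adjusted p of 0.129, 0.481 and 0.0943), with DESeq2 (0.0716) or with summed markers (0.128), and that of Fbln5 (-2.76) not without telogen replicate 2 (0.120). These last 2 pairs rest on the KO fibroblast-like cells.

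The other genes of the pathway were a fixed list of 30, made of crosslinking enzymes, further fibulins, microfibril proteins and emilins, fibronectin with its integrins, and elastin-degrading proteases. All 5 lysyl oxidases were highest in fibroblast-like cells, among them Loxl1 (252 CPM), Loxl2 (181 CPM) and Lox (143 CPM, means of 4 WT libraries). Lox itself was also arterial, at 122 ± 46.6 CPM (SD, n = 4) in artery-like cells, with a log2 fold change of 4.46 ± 0.11 (SE) over the other blood ECs, and did not differ by the test from fibroblast-like cells (-0.39 ± 0.25). Loxl1 had 3 UMIs in all WT artery-like cells. Fbln2, a further fibulin, was the one list member highest in artery-like cells (764 CPM, from 663 to 893 CPM, overlapping vein-like cells at 451 to 932 CPM), and Mfap2, a microfibril glycoprotein, was highest in fibroblast-like cells (470 CPM) with 0.85 to 1.64 CPM in artery-like cells.

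Against the other blood ECs, 8 of 14 list genes tested were higher in artery-like cells and 2 lower, where 33.3% of all genes were called and 17.2% were called higher, and the median log2 fold change was 0.95, against -0.01 over all genes. Against fibroblast-like cells 1 of 23 was higher in artery-like cells (Fbln2) and 20 lower (56.5% of all genes called), with a median of -4.35, against -0.01 over all genes. Fibroblast-like cells were higher than perineurial-like cells for 19 of 25 and lower for 2 (51.4% of all genes called), and pericyte-like cells were lower than fibroblast-like cells for 21 of 22 and higher for 0 (44.3% of all genes called).

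By stage, no list gene was called in artery-like (15 tested), fibroblast-like (25) or perineurial-like cells (26). Ltbp1, a second latent TGF-beta binding protein, was called lower in anagen in vein-like and collecting lymphatic-like cells, in the latter from 220 and 258 CPM to 114 and 116 CPM. In the KO, artery-like cells had 1 of 10 list genes higher (Itgb3) and 3 lower, where 18.0% of all genes were called. Ltbp1 fell from 40.0 and 46.0 CPM to 1.76 and 2.40 CPM (log2 -4.29 ± 0.42, SE) and Fbln2 from 704 and 893 CPM to 342 and 269 CPM (-1.38 ± 0.17). Itgav, an integrin chain that binds matrix proteins, fell from 51.7 and 43.5 CPM to 16.7 and 17.6 CPM. Itgb3, its partner, rose from 16.7 and 22.2 CPM to 37.8 and 39.3 CPM. In KO fibroblast-like cells 2 of 25 were higher and 11 lower (37.7% of all genes called), with Lox among the higher (233 and 163 CPM, then 937 and 747 CPM) and Loxl1 among the lower (263 and 313 CPM, then 64.8 and 39.8 CPM). In perineurial-like cells 2 of 23 were higher and 8 lower (20.4% of all genes called), and in pericyte-like cells 0 of 13 were called (5.89% of all genes called).

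Genes with the most similar pattern were ranked by Pearson's r of log2(CPM + 1) over 11 populations, as a description over means that share libraries. Eln was most like Ace (0.93), Heg1 (0.93) and Cpd (0.90), Fbln5 like Sav1 (0.91), Bmx (0.90) and Msrb3 (0.90), and Ltbp4 like Zfyve9 (0.91), Pam (0.91) and Prrg1 (0.91). Mgp was most like Sulf1 (0.95), Lox (0.89) and Pcsk5 (0.89). Fbn1 was most like Fstl1 (0.96), Plagl1 (0.95) and Aga (0.95), Fbn2 like Ror2, Adamts2 and Fgf7 (0.98 to 0.99), Mfap4 like Mmp27, Uts2 and Wif1 (0.99 each), and Efemp1 like Sema3c (0.97), Olfml3 (0.97) and Ufc1 (0.97). Mfap5 was most like Ephb2, Sertad4 and Vit (0.97 each). Among the 10 genes the closest pairs were Mfap5 with Efemp1 (0.91), Fbn2 with Mfap5 (0.89), Fbn2 with Efemp1 (0.88) and Eln with Fbln5 (0.83), and the least alike were Fbln5 and Efemp1 (-0.46).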

How the data were processed

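The values are UMI counts per gene and cell from Chromium 3′ v3 libraries, deposited by the authors. Their notes name Cell Ranger 6.0.1 and the mm10 build. Seurat 4.0 is also named in the submitters' notes. Totals were 10615358 and 11239445 UMIs in the KO libraries and 29851591 to 43317677 UMIs in the WT libraries. Cells with 200 to 5000 genes and under 10% mitochondrial UMIs were kept, clustered (3000 variable genes without the 10 genes and the pathway list, 30 principal components, Harmony correction, Leiden, scanpy 1.11.5) and named from marker lists. Likely doublets were kept, and removed as an alternative. Where the automatic call found very few, the cells with the top 5% of doublet scores were removed instead. This was so in telogen replicate 1, both anagen replicates and KO replicate 2 (2 to 6 automatic calls, 98 to 255 cells removed). Telogen replicate 2 lost 1.24% and KO replicate 1 lost 0.525% of cells, so the removal was uneven. Counts summed per library and population were tested with edgeR 4.0.16 (filterByExpr, TMM, quasi-likelihood) and adjusted over all genes tested. DESeq2 1.42.0 was an alternative, and the procedure was tested on simulated data. Each SE is the size of the log2 fold change divided by the square root of the F of its test. An exact permutation test of 2 against 2 libraries cannot go below p = 0.333, so model p-values are given. The 10 genes and the lists were chosen with earlier results of these data known. Genes named are the 10, pathway genes called or highest in artery- or fibroblast-like cells, and the 3 most alike genes of each, except for Emilin1, where they are not reported here. In its single-cell data the study tested single cells, which are not replicates. Its qPCR on sorted cells used several mice per genotype and covered matrix genes other than the 10.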

Additional observations from a re-analysis of the deposited data

Results flagged for a closer look

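The following 14 interaction tests passed the threshold of the edgeR quasi-likelihood test with Benjamini-Hochberg adjustment, and each value is the log2 effect in the first population minus that in the second. Anagen against telogen, artery-like minus fibroblast-like, it was -1.74 for Mfap5 and -0.99 for Mgp. Perineurial-like minus fibroblast-like, it was 1.97 for Eln, and 0.31 (adjusted p = 0.905) with likely doublets removed. For the Alk1 KO, artery-like minus other blood ECs, it was -1.39 for Emilin1 and -0.93 for Mgp. Artery-like minus fibroblast-like, it was 1.91 for Fbn1, 2.17 for Emilin1, 1.64 for Mgp and -2.91 for Fbln5. Perineurial-like minus fibroblast-like, it was 2.77 for Fbn1, 1.18 for Mfap5 and -2.76 for Fbln5. Mfap4 (6.68) and Fbn2 (-8.04) were also called there, with perineurial-like counts at or near 0 in a group, so that these sizes depend on the prior count and are no bounds. All KO values against fibroblast-like cells rest on KO cells with few fibroblast markers, and the cause was not tested.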

How the results depend on the processing

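The population with the highest level was the same for 10 of 10 genes under each alternative run for it (4 choices for cells and each WT library left out). The 5 stage calls became 9 with likely doublets removed, 10 with cells called from summed markers, 23 with no low-count filter and 11 with a replicate block, and 7 to 17 without 1 library (9 without telogen replicate 1, 17 and 14 without anagen replicates 1 and 2). The numbers did not pair the samples (2 pairs a contrast, correlations of deviations from -0.16 to 0.17). The 34 KO calls ranged from 23 to 41 (33 with the replicate block, and 23 to 39 without 1 library, the fewest without telogen replicate 1). The 3 stage interactions became 1 without doublets and 9 with no low-count filter, and 1 to 9 without 1 library (1 without telogen replicate 1, 5 and 9 without anagen replicates 1 and 2). The 11 KO interactions became 7 with DESeq2 and 7 to 14 without 1 library (7 without either telogen replicate). Fbn1 in KO capillary-like cells turned to 0.36 (stricter cell filter), 0.33 (no Harmony correction) and 0.69 (summed markers), and Mgp, fibroblast- against perineurial-like, to 0.057 (summed markers). Chosen after seeing the data, the Pi16 and Alpl cluster alone gave 4 of the 7 calls over the other blood ECs, and -0.62 for Eln and -0.85 for Mgp against fibroblast-like cells. The causes of these changes were not tested. Under the alternatives other than these clusters, 1000 log2 values of called genes kept their direction and call, 124 lost the call and 4 turned. These alternatives, here and in each count above, include the main fit without the fold limit, in which no call could be lost. Thinned to 3000 UMIs and not thinned, the shares of cells were 64.3% and 77.02% for Eln, 94.0% and 96.3% for Fbln5, 62.2% and 69.9% for Fbn1, 12.05% and 26.5% for Fbn2, 98.9% and 98.0% for Mfap5, 16.5% and 36.2% for Emilin1, 83.7% and 91.4% for Ltbp4, 51.9% and 56.5% for Mgp and 31.5% and 45.2% for Efemp1, and 32.5% for Mfap4 not thinned. With 2 libraries a group, small changes of genes near their level in immune-like cells were not detectable. In the simulated data, 2-fold changes by stage and in the KO were called in 58% and 45% of cases (artery-like). The values were 60% and 13% for perineurial-like, 12% and 13% for fibroblast-like and 9% and 5% for pericyte-like cells. A gene that was not called is therefore not shown to be unchanged. False calls in the simulated comparisons numbered from 2 (KO, perineurial-like) to 30 (stage, artery-like). The artery-like stage comparison recovered 150 of 200 changed genes beside its 30 false calls, so more than 5% of its calls were false. The arterial Eln call by stage comes from this kind of comparison. The artery-like KO comparison recovered 131 beside 3 false calls.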
